A study of Mus musculus with 10 samples.

Results

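Ffar2, Tmem40, Tmem119, Tmem121, Myl10, Prnp, Evpl, Mylk, Farp1 and Crisp1 are 10 genes picked as the strongest ectopic genes of B cell precursor leukemias in mice. They were chosen by their measured levels. For 7 of them the choice used the difference between the leukemias and wt pro-B cells, for Mylk the difference between the leukemias and dHet pro-B cells, and Farp1 and Crisp1 stood among genes that were measured on 1 side only. Differences of the 10 genes between the leukemias and either kind of pro-B cell are therefore given as descriptions, without a test. All 15 non-control probes that carry one of these gene names were read, of 41174 probes on the array, and the 10 genes are among 14457 genes that passed the filter on dim probes. That filter kept 14 of the 15 probes.

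RNA was measured on one-colour Agilent arrays, 10 in all, with 2 arrays in each of 5 groups. The leukemias were lymph node cells of the diseased mice 686, 713 and 760, which carried 1 mutant copy each of Ebf1 and Pax5 (Ebf1+/- Pax5+/-, or dHet). For dHet pro-B cells, c-Kit-positive cells of Ebf1+/- Pax5+/- Rag2-/- fetal livers were grown briefly over OP9 feeder cells in the presence of SCF, IL-7 and Flt3 ligand. As wt pro-B cells, Fraction BC was sorted from Ebf1+/+ Pax5+/+ control bone marrow. The 3 kinds of sample thus differ in tissue, culture, feeder cells and Rag2 genotype as well as in leukemia, and these differences cannot be told apart. Whether replicates are separate animals or cultures is not in the labels, so a p-value over arrays may measure technical spread.

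EBF1 and PAX5 are transcription factors that establish the B cell programme, and PAX5 also holds down genes of other lineages. Several of the 10 genes are best known elsewhere: Ffar2 in neutrophils and gut endocrine cells, Tmem119 in microglia, Tmem40 in human platelets, Evpl in stratified epithelium, Mylk in smooth muscle, Prnp in neurons and Crisp1 in the epididymis. Myl10 is an exception, since it was first described as a regulatory myosin light chain of precursor lymphocytes.

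The arrays allowed these levels to be read with limits that depend on brightness. Over the 14457 genes, each read by its brightest kept probe, replicates correlated at r = 0.953, 0.973 and 0.975 in leukemias 686, 713 and 760. They did so at 0.992 in dHet pro-B cells and at 0.994 in wt pro-B cells. Of all probes, 35.7% were well above background on replicate 1 of leukemia 686 and between 42.1% and 52.4% on the other arrays, and no spot was saturated. Replicates 1 of the leukemias shared slide 1 and replicates 2 shared slide 2, while all pro-B arrays were on slide 3. An effect of slide therefore cannot be told apart from the difference between leukemias and pro-B cells. The 2 dHet pro-B arrays held different RNA, since Xist stood at -5.96 on replicate 1 and 5.17 on replicate 2. Of 19 B lineage identity genes, 17 were well above background on all 6 leukemia arrays. The 19 genes summed to 1402 to 2049 in the leukemias, 2863 to 3136 in dHet and 2238 to 2269 in wt pro-B cells. These sums are in linear units of the array's 75th percentile. By limma, 4 were higher and 11 lower in leukemias than in wt pro-B cells, against 31.2% and 27.5% of all genes. Against dHet pro-B cells 1 was higher and 12 lower, against 21.7% and 24.4%. Pax5, on 2 of 6 leukemia arrays, fell by 4.05 ± 0.79 against wt pro-B cells (adjusted p = 0.00692).

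Every level below is the log2 of a probe's processed signal over its array's 75th percentile, so 0 is that percentile. Levels of one probe are compared between samples and never with those of another probe. All 10 genes were well above background on all 6 leukemia arrays, 8 of 10 on both dHet pro-B arrays and 7 of 10 on both wt pro-B arrays. Only Farp1 and Crisp1 were on neither wt array, and Tmem40 was on 1 of 2. The name ectopic, read as absent from normal pro-B cells, thus went against the array flags for 8 of the 10 genes, and Tmem121 lay above the 75th percentile even in wt pro-B cells.

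**Figure D1:**
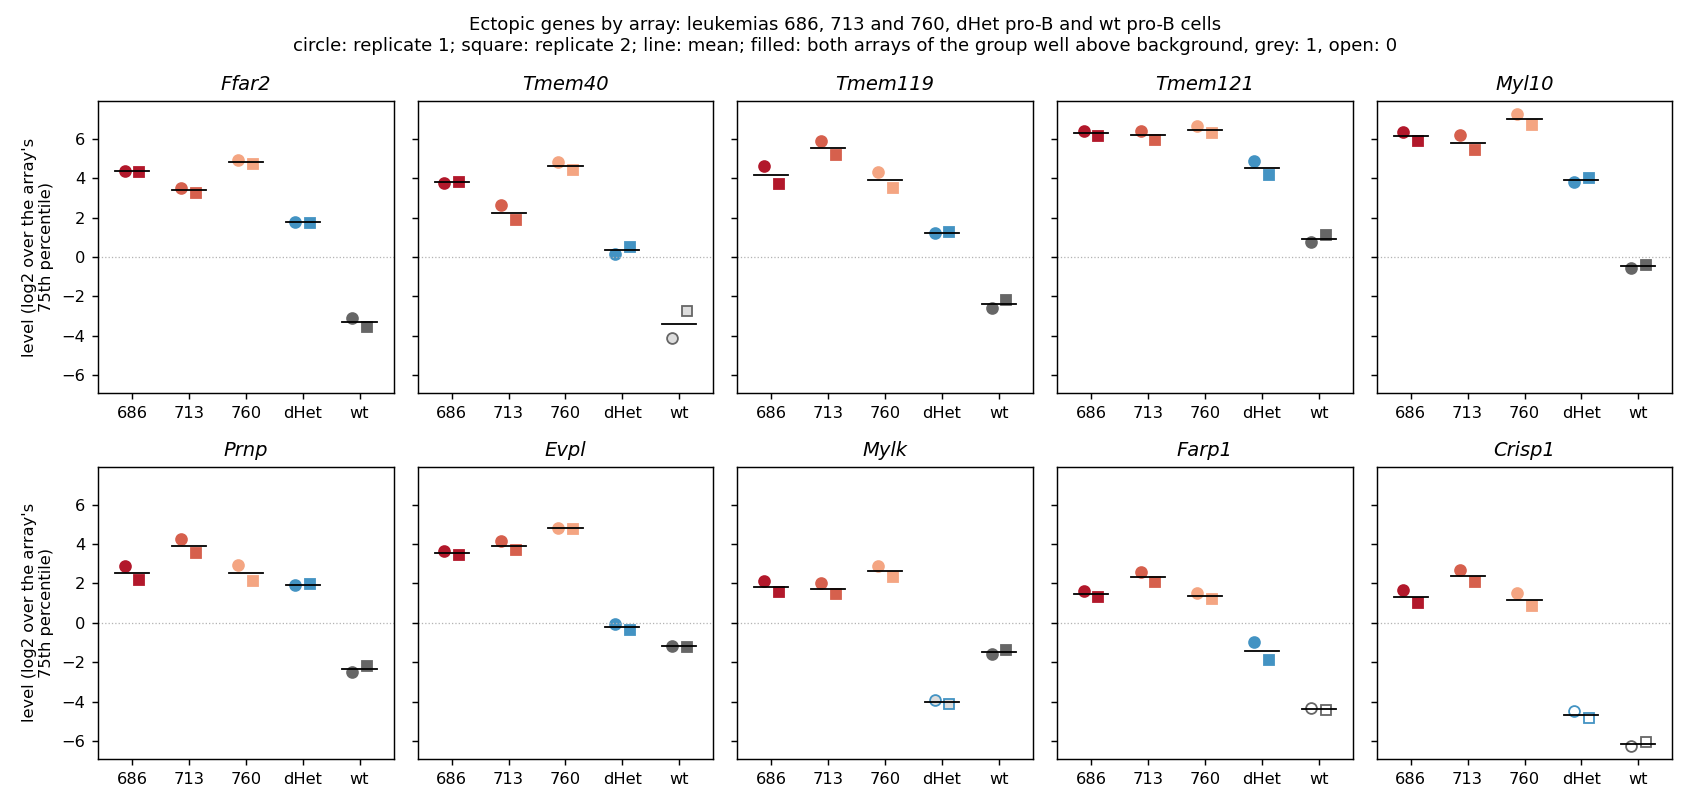
Level of each of the 10 genes (log2 over the array's 75th percentile, y axis) on the 2 arrays of leukemias 686, 713 and 760, dHet pro-B and wt pro-B cells (x axis). Circles are replicates 1, squares replicates 2, and lines group means; filled symbols mark groups well above background on both arrays, grey ones on 1 array and open ones on none. All leukemia symbols sit above the pro-B symbols of the same gene.

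For each of the 10 genes the lowest leukemia array lay above the highest of the 4 pro-B arrays, as it did for 17.8% of all genes tested. Over all genes tested, limma called 31.2% higher in leukemias than in wt pro-B cells (58.7% in either direction) and 21.7% higher than in dHet pro-B cells (46.2% in either direction). The pick used these contrasts, so nothing is read from the members' count. In bulk samples like these, fewer cells of a type and less RNA per cell cannot be told apart.

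Ffar2 encodes a G protein-coupled receptor for the short-chain fatty acids acetate, propionate and butyrate. Its probe lies at chr7:31604149-31604208 on the minus strand of mm9. Its level was 4.36 and 4.33 in leukemia 686, 3.52 and 3.26 in 713, and 4.91 and 4.74 in 760, against 1.80 and 1.75 in dHet pro-B cells and -3.09 and -3.53 in wt pro-B cells. The 3 kinds of sample formed separate steps. The leukemia mean of 4.18 ± 0.73 (SD, n = 3 mice) was 181-fold above the mean of wt pro-B cells and 5.32-fold above that of dHet pro-B cells, and the dHet level was 33.9-fold above the wt level. This dHet step over wt was the largest among the genes that had a measured wt level on both arrays.

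Tmem40 encodes a small transmembrane protein. The brighter of its 2 probes, at chr6:115679213-115679272 on the minus strand, read 3.77 and 3.82 in leukemia 686, 2.64 and 1.86 in 713, and 4.80 and 4.43 in 760, against 0.17 and 0.50 in dHet pro-B cells and -4.09 and -2.73 in wt pro-B cells. The wt arrays differed most from each other here, and only 1 of them was well above background, so the folds over wt use a wt mean with 1 measured array. The leukemia mean of 3.55 ± 1.20 (SD, n = 3 mice) was 124-fold above wt and 9.30-fold above dHet pro-B cells, with dHet 13.4-fold above wt. The dimmer probe averaged 0.88 in the leukemias, -2.41 in dHet and -4.90 in wt pro-B cells. It was not well above background on the wt arrays, which makes the leukemia level at least 31.7-fold above wt, while it was 9.78-fold above dHet pro-B cells.

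Tmem119 encodes a membrane protein used as a marker of microglia and also active in bone-forming cells. At chr5:114243962-114244021 on the minus strand, its level was 4.59 and 3.70 in leukemia 686, 5.87 and 5.18 in 713, and 4.31 and 3.52 in 760, against 1.21 and 1.27 in dHet pro-B cells and -2.57 and -2.20 in wt pro-B cells. Leukemia 713 stood above the other leukemias on both arrays. The leukemia mean was 4.53 ± 0.87 (SD, n = 3 mice), 121-fold above wt and 9.76-fold above dHet pro-B cells, and dHet was 12.4-fold above wt.

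Tmem121, whose probe lies at chr12:114427627-114427686 on the plus strand beside the immunoglobulin heavy chain locus, encodes another membrane protein. It read 6.39 and 6.16 in leukemia 686, 6.41 and 5.95 in 713, and 6.63 and 6.30 in 760, against 4.85 and 4.18 in dHet pro-B cells and 0.77 and 1.11 in wt pro-B cells. The leukemias were close to each other, with a mean of 6.31 ± 0.15 (SD, n = 3 mice), the smallest spread between mice of the 10 genes. That mean was 41.3-fold above wt and 3.46-fold above dHet pro-B cells, and dHet was 11.9-fold above wt.

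Prnp encodes the prion protein, a surface glycoprotein held by a lipid anchor. Its probe, at chr2:131763817-131763876 on the plus strand, is spotted 10 times on each array. The level was 2.87 and 2.18 in leukemia 686, 4.27 and 3.57 in 713, and 2.91 and 2.10 in 760, against 1.91 and 1.98 in dHet pro-B cells and -2.52 and -2.19 in wt pro-B cells. Replicates 2 of leukemias 686 and 760 stood only just above the dHet pro-B arrays, the closest approach of the 10 genes. With a leukemia mean of 2.98 ± 0.81 (SD, n = 3 mice), Prnp was 40.5-fold above wt but 2.06-fold above dHet pro-B cells, and dHet was 19.7-fold above wt.

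Myl10 and Mylk belong to the same contractile pathway, in which the kinase encoded by Mylk phosphorylates regulatory myosin light chains when calmodulin carries calcium. Both probes shown next bear on which transcripts were read. The Myl10 probe spans 2750 bases of genome at chr5:137173854-137176603 on the plus strand, so its 60 bases come from a spliced message. The Mylk probe given second was the dimmer of the pair that was detected.
Myl10 probe (mm9): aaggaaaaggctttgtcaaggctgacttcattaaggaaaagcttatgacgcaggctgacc
Mylk second probe (mm9, chr16:34996839-34996898, plus strand): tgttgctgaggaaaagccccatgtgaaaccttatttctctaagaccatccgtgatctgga

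Myl10 read 6.36 and 5.91 in leukemia 686, 6.17 and 5.44 in 713, and 7.25 and 6.72 in 760, against 3.78 and 4.01 in dHet pro-B cells and -0.54 and -0.40 in wt pro-B cells. Its steps resembled those of Ffar2. The leukemia mean was 6.31 ± 0.61 (SD, n = 3 mice), 109.7-fold above wt and 5.32-fold above dHet pro-B cells, and dHet was 20.6-fold above wt.

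Mylk had the other order of pro-B cells. Its brightest probe, at chr16:34995162-34995221 on the plus strand, read 2.10 and 1.57 in leukemia 686, 2.03 and 1.45 in 713, and 2.91 and 2.31 in 760, against -3.93 and -4.12 in dHet pro-B cells and -1.56 and -1.40 in wt pro-B cells. The dHet pro-B cells lay below the wt pro-B cells, and only 1 of the 2 dHet arrays was well above background, so the folds against dHet use a dHet mean with 1 measured array. The leukemia mean of 2.06 ± 0.48 (SD, n = 3 mice) was 67.9-fold above dHet and 11.6-fold above wt pro-B cells, and the dHet level differed from the wt level by -2.55, with wt 5.84-fold higher. The second probe gave 13.5-fold over wt and at least 54.3-fold over dHet pro-B cells. The dimmest Mylk probe, at chr16:34954118-34954177, was not well above background on any array.

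Evpl encodes envoplakin, a plakin of the cornified envelope of epidermis. Its dimmer probe lies at chr11:116082184-116082243 on the minus strand and is shown because it gives a second reading of an epithelial gene in lymphoid cells.
Evpl second probe (mm9): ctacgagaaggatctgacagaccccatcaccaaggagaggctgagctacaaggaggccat

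The brighter Evpl probe, at chr11:116081921-116081980, read 3.67 and 3.46 in leukemia 686, 4.14 and 3.69 in 713, and 4.84 and 4.77 in 760, against -0.07 and -0.37 in dHet pro-B cells and -1.16 and -1.22 in wt pro-B cells. Both kinds of pro-B cell stayed below 0, with dHet 0.97 above wt. Its mean over leukemias of 4.09 ± 0.64 (SD, n = 3 mice) was 19.9-fold above dHet and 38.9-fold above wt pro-B cells. The second probe gave at least 37.1-fold over wt and 17.9-fold over dHet pro-B cells.

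Farp1 encodes a FERM domain protein that acts on Rac and takes part in dendrite and synapse growth. At chr14:121682802-121682861 on the plus strand, its level was 1.64 and 1.30 in leukemia 686, 2.58 and 2.07 in 713, and 1.51 and 1.19 in 760, against -0.98 and -1.90 in dHet pro-B cells and -4.30 and -4.43 in wt pro-B cells. Neither wt array was well above background. The leukemia mean of 1.71 ± 0.53 (SD, n = 3 mice) was at least 56.6-fold above wt and 8.91-fold above dHet pro-B cells, and dHet was at least 6.35-fold above wt. A second probe, which shares 42 of its 60 bases with the first, gave at least 38.4-fold over wt and 7.64-fold over dHet pro-B cells.

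Crisp1 encodes a cysteine-rich secretory protein that coats sperm in the epididymis. Its single probe spans 3140 bases at chr17:40435143-40438282 on the minus strand, so it too reads a spliced message.
Crisp1 probe (mm9): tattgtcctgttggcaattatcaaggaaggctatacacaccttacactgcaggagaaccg

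The Crisp1 level was 1.65 and 1.00 in leukemia 686, 2.66 and 2.08 in 713, and 1.53 and 0.83 in 760, against -4.48 and -4.81 in dHet pro-B cells and -6.23 and -6.02 in wt pro-B cells. No pro-B array was well above background. Its mean over leukemias of 1.63 ± 0.65 (SD, n = 3 mice) was at least 51.3-fold above dHet and at least 53.2-fold above wt pro-B cells, and no fold is given between the 2 kinds of pro-B cell. These bounds take, on each pro-B array, the higher of the probe's own signal and the lowest signal among probes well above background.

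The members were then split by their level in dHet pro-B cells. A gene counted as already high there when it was well above background on both dHet arrays and at most 1 log2 unit below the leukemia mean. It counted as intermediate when it was more than 1 unit below the leukemias, on both dHet arrays and at least 1 unit above wt pro-B cells, and otherwise as high only in the leukemias. No gene was already high, 7 were intermediate (Ffar2, Tmem40, Tmem119, Tmem121, Myl10, Prnp and Farp1), and 3 were high only in the leukemias (Evpl, Mylk and Crisp1). Across all genes tested, limma called 16.7% higher in dHet than in wt pro-B cells and 31.6% different in either direction, and 9 of the 10 members had both dHet arrays above both wt arrays, as did 48.5% of all genes. The split rests on that contrast, so the count is a description. Prnp lay just outside the first class, with a leukemia minus dHet difference of 1.04, and Evpl just outside the intermediate class, with a dHet minus wt difference of 0.97. Under 18 other settings, Prnp was already high in 8, Evpl was intermediate in 4, and Farp1 was high only in the leukemias in 2. The other 7 genes kept their class in all 18.

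**Figure D2:**
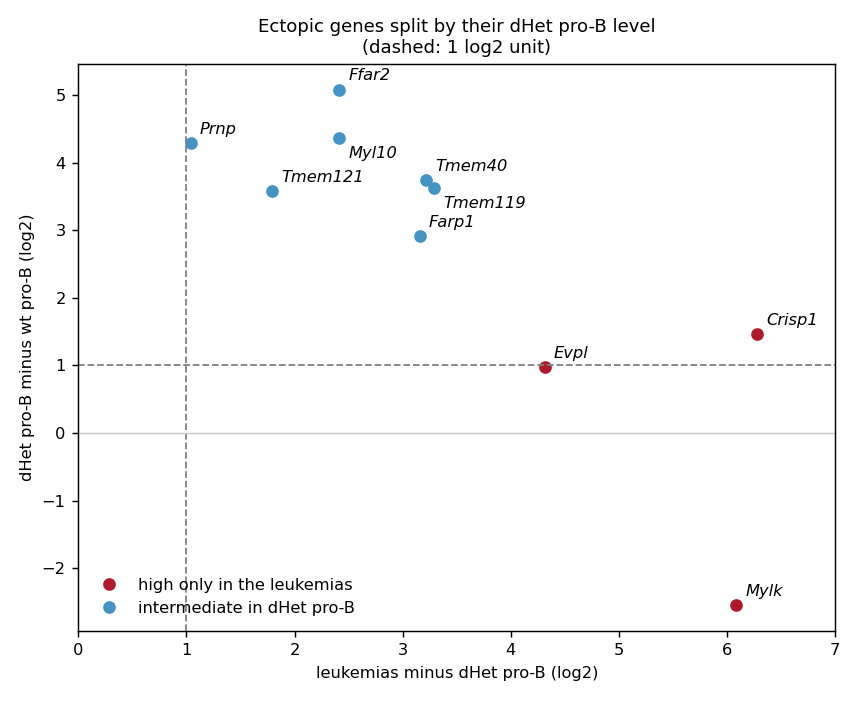
Leukemias minus dHet pro-B cells (x axis, log2) against dHet pro-B minus wt pro-B cells (y axis, log2) for the 10 genes, as differences of group means without a test. Dashed lines mark 1 log2 unit, blue points are intermediate genes and red points genes high only in the leukemias; Prnp touches the vertical line at 1.04 and Evpl the horizontal line at 0.97, and Mylk alone lies below 0.

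RefSeq promoters (GRCm38.p6, 300 bases around a transcription start) were found for 7 of the 10 genes, 13 promoters in all. Of these, 3 are printed because they belong to the gene with the largest measured change over wt pro-B cells (Ffar2, its most upstream start at chr7:30823726-30824025, minus strand) and to Mylk (chr16:34784700-34784999, plus strand) and Crisp1 (chr17:40319158-40319457, minus strand), which were high only in the leukemias. Capitals mark matches on either strand to the motifs that the sentences after them spell out.
Ffar2 promoter: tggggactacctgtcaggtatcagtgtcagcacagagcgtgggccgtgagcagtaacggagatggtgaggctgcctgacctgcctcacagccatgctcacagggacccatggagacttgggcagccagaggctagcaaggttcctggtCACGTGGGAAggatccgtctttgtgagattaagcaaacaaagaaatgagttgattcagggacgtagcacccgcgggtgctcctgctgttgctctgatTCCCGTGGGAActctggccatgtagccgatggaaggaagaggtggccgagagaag
Mylk promoter: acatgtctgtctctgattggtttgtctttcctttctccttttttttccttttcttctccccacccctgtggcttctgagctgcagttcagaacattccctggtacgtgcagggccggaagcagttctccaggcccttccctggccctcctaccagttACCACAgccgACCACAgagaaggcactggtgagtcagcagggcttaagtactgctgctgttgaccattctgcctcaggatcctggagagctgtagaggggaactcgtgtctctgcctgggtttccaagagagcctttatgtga
Crisp1 promoter: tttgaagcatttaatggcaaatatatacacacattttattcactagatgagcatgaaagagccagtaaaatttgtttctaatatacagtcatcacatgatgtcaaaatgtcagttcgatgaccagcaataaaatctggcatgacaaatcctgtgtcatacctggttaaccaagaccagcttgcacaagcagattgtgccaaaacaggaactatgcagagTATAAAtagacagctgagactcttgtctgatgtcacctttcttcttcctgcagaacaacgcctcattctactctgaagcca

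The printed Ffar2 promoter held the EBF1 core palindrome (TCCC, any pair of bases, then its reverse complement) and the E-box CACGTG, a core of MYC sites. Each of these motifs matched 1 of the 13 member promoters, and the other Ffar2 promoters held neither. In the printed Ffar2 promoter both motifs overlap a match to TGGGAA, a core of Ikaros sites. That core matched 6 of the 13 promoters, all of Ffar2 or Myl10. The EBF1 palindrome stood in 0.904% of 32851 promoters of the same length, the E-box in 7.15% and the Ikaros core in 25.6%. Mylk held the RUNX core TGTGGT at 2 places, and Tmem40, Tmem121 and another Ffar2 promoter held it too, against 16.8% of all promoters. Crisp1 and Prnp held TATAAA, which 13.6% of promoters did. The other 2 motifs searched, the STAT5 palindrome TTCNNNGAA (8.30% of promoters) and the PU.1 core GAGGAAGT (3.20%), had no match in the 13 windows. The Crisp1 promoter held 2 CpG pairs and the printed Mylk and Ffar2 promoters 4 and 11, while Prnp held 22 and Tmem121 held 29, against a median of 7 over all promoters (quartiles 3 and 20). A match is a description of the letters and not of a bound site.

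Differences between the leukemias were not used in the pick, and they were tested with limma over all 14457 genes, each leukemia against the other 2. The spread behind these p-values is that between the arrays of each group, pooled over the 5 groups. In leukemia 713, 5 of 10 members passed an adjusted p of 0.05, against 15.3% of all genes: Tmem119, Prnp and Crisp1 were higher (8.87% of all genes) and Ffar2 and Tmem40 lower (6.47%). In leukemia 760, 3 of 10 passed, against 12% of all genes, and Ffar2, Tmem40 and Evpl were higher (5.34% of all genes were higher and 6.63% lower). In leukemia 686 none of the 10 passed, against 4.27% of all genes (1.74% higher and 2.52% lower), and 1 of 10 (Evpl) had an unadjusted p under 0.05, against 16.7% of all genes. With slide as a fixed block, an alternative added after the data were seen, 8, 8 and 3 members passed in leukemias 713, 760 and 686, against 33.9%, 25.9% and 15.1% of all genes under the same block.

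**Figure D3:**
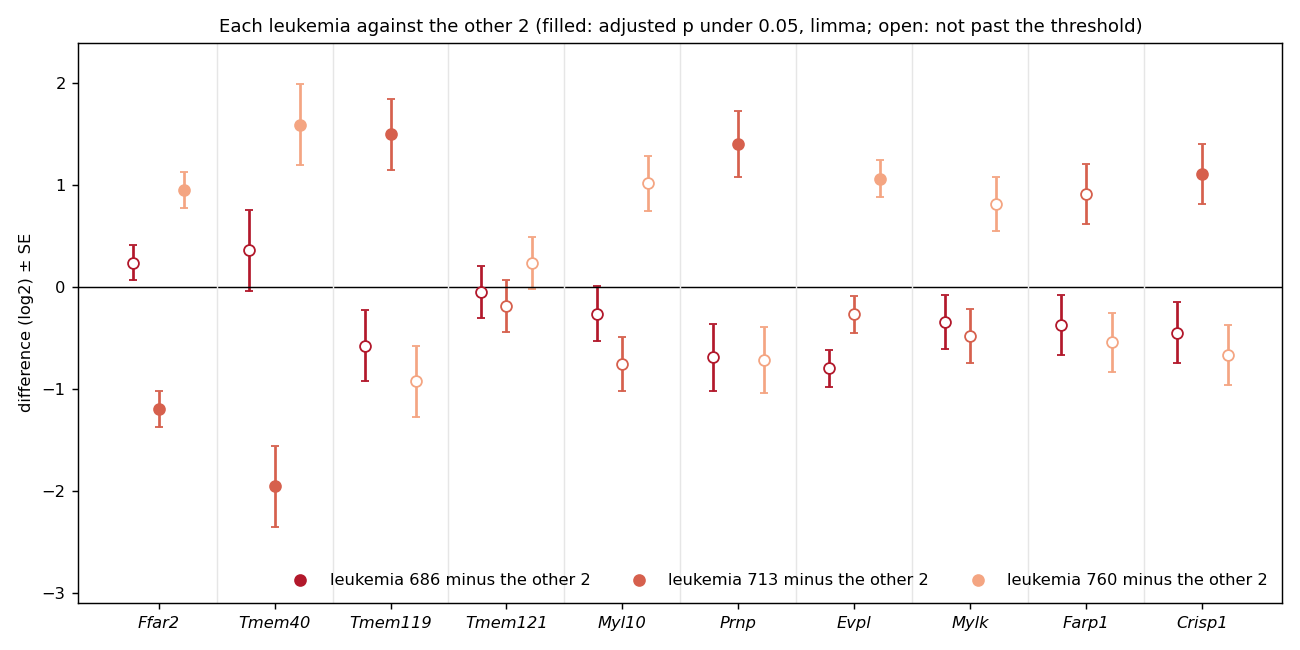
Difference of each leukemia from the mean of the other 2 (y axis, log2, ± SE) for the 10 genes (x axis), in dark red for leukemia 686, red for 713 and orange for 760. Filled points passed an adjusted p of 0.05 (limma); Ffar2 and Tmem40 are low in 713 and high in 760, Tmem119, Prnp and Crisp1 are high in 713, and Tmem121 lies near 0 in all 3.

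Ffar2 was lower in leukemia 713 than in the other leukemias by a difference of -1.20 ± 0.17 (SE, adjusted p = 0.00449), with -1.11 within slide 1 and -1.28 within slide 2 (slide block adjusted p = 0.00188). It was higher in 760 by 0.96 ± 0.17 (adjusted p = 0.0131), with 0.97 and 0.94 within the slides (slide block adjusted p = 0.00519). The arrays of the 3 leukemias did not overlap. Leaving out any 1 of the 10 arrays kept the call in 713, whereas the call in 760 was lost without replicate 1 (adjusted p = 0.0914) or replicate 2 (0.051) of leukemia 760. Under normexp background correction neither Ffar2 call held, with differences of -0.90 in 713 (adjusted p = 0.399) and 0.18 in 760 (adjusted p = 0.751).

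Tmem40 differed in the same directions. It was lower in 713 by a difference of -1.96 ± 0.40 (adjusted p = 0.0173), with -1.65 and -2.26 within the slides (slide block adjusted p = 0.0123), and higher in 760 by 1.59 ± 0.40 (adjusted p = 0.0437), with 1.60 and 1.59 within the slides (slide block adjusted p = 0.0311). Its highest mouse stood 5.16-fold above its lowest, the widest range of the 10 genes. The call in 713 was lost without replicate 2 of leukemia 713 (adjusted p = 0.126). The call in 760 held in 3 of 10 such refits, without replicate 1 of 713 or without either wt array, and reached an adjusted p of 0.235 without replicate 1 of 760.

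Tmem119, Prnp and Crisp1 were higher in leukemia 713. Tmem119 differed by 1.50 ± 0.35 (adjusted p = 0.0294), with 1.42 and 1.58 within the slides (slide block adjusted p = 0.000669). Prnp differed by 1.40 ± 0.33 (adjusted p = 0.0286), with 1.38 and 1.42 within the slides (slide block adjusted p = 0.000588). Crisp1 differed by 1.11 ± 0.30 (adjusted p = 0.0472), with 1.07 and 1.16 within the slides (slide block adjusted p = 0.00164). Both arrays of 713 lay above all other leukemia arrays for these genes, a description given without the share of all genes. The calls were near the threshold and held in 3, 4 and 2 of 10 refits that left out 1 array, with adjusted p up to 0.162, 0.159 and 0.229 for Tmem119, Prnp and Crisp1, each without replicate 1 of leukemia 713. Without a pro-B array, which enters only through the pooled spread, all 3 calls were lost, with adjusted p between 0.0564 and 0.0888.

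Evpl was higher in leukemia 760 by 1.06 ± 0.18 (adjusted p = 0.0106), with 0.93 and 1.19 within the slides (slide block adjusted p = 0.00265). The call was lost without replicate 1 (adjusted p = 0.0696) or replicate 2 (0.0541) of leukemia 760. Evpl also had a difference of -0.80 ± 0.18 in leukemia 686 (adjusted p = 0.0613, slide block 0.013).

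Across the 8 calls, 7 missed the threshold without the filter on dim probes, all but Ffar2 in 713 (adjusted p between 0.069 and 0.179), and 6 missed it under normexp background correction, all but Tmem119 and Prnp. With the replicate number as a block, the call of Tmem40 in 760 missed it (adjusted p = 0.0542). All 8 kept their sign under 20 alternatives.

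The remaining 4 genes did not pass in any leukemia without a block, and 3 of them did with slide as a block. Myl10 had a difference of 1.02 ± 0.27 in 760 (adjusted p = 0.0538, slide block 0.0019) and Farp1 one of 0.91 ± 0.29 in 713 (adjusted p = 0.0849, slide block 0.0354). Mylk had 0.82 ± 0.26 in 760 (adjusted p = 0.103, slide block 0.00256). In these 3 genes the named arrays lay apart from the other leukemia arrays, and the share of all genes that did so was not computed. In 713, Myl10 (-0.76) and Mylk (-0.48) also passed with slide as a block (adjusted p = 0.00435 and 0.0133). Tmem121 ranged over 0.28 between mice, or 1.22-fold, and its differences lay between -0.19 and 0.24. By mouse means, leukemia 760 was the highest for 6 of 10 genes and 713 for 4, and 686 for none. The shares of all genes with these orders were not computed. Replicate 1 stood above replicate 2 in 29 of 30 pairs of a member and a mouse, by a median of 0.52, against a median of 0.17 over all genes. In the leukemias replicate number and slide are the same split.

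Related genes of each member were followed in the same fits. Their counts stand beside 31.2% of all genes higher and 27.5% lower in leukemias than in wt pro-B cells. For leukemias against dHet pro-B cells these shares were 21.7% and 24.4%, and for dHet against wt pro-B cells 16.7% and 14.9%. The lists were made with earlier results of these data known, and their medians stand beside a median change over all genes of 0.06 for leukemias against wt, -0.06 for leukemias against dHet and 0.13 for dHet against wt pro-B cells.

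Among 10 tested genes of fatty acid receptors, transporters and their G proteins, 2 were higher and 2 lower in leukemias than in wt pro-B cells, with a median change of 0.03. The arrestin gene Arrb2 was higher by 1.29 ± 0.17 (adjusted p = 0.0018), and Ffar1, a receptor for longer fatty acids whose gene neighbours Ffar2, was not well above background on any leukemia array and at least 1.37-fold higher in wt pro-B cells (adjusted p = 0.0338). Against dHet pro-B cells 1 was lower in the leukemias and 9 did not pass. In dHet against wt pro-B cells 3 were higher and 2 lower, among them Arrb1, another arrestin, at 1.60 ± 0.16 (adjusted p = 0.000511) and the monocarboxylate transporter Slc16a1 at 1.52 ± 0.19 (adjusted p = 0.00135).

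Among 22 tested genes of myosin chains, their kinases and their phosphatase, 4 were higher and 6 lower in leukemias than in wt pro-B cells, with a median change of 0.04. The genes with the widest changes were lower, namely the non-muscle heavy chain Myh14 (on 1 of 6 leukemia arrays) at -1.70 ± 0.25 (adjusted p = 0.00239), the light chain interacting protein Mylip at -1.62 ± 0.45 (adjusted p = 0.0241) and the phosphatase subunit Ppp1r12b (on 3 of 6) at -1.51 ± 0.24 (adjusted p = 0.0032). Against dHet pro-B cells 4 were higher and 3 lower, and the regulatory light chain Myl12a, on 5 of 6 leukemia arrays, was higher by 1.09 ± 0.26 (adjusted p = 0.0201). In dHet against wt pro-B cells 1 was higher and 2 lower: the heavy chain Myh10 averaged 0.12 in dHet and -4.48 in wt pro-B cells, at least 18.8-fold higher (adjusted p = 0.00714), and the light chain Myl9, on 1 of 2 dHet arrays, fell by 1.93 ± 0.19 (adjusted p = 0.000439). The other light chain kinase genes Mylk2 and Mylk4 were on no array of the leukemias or pro-B cells.

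Of 23 plakin and cornified envelope genes on the array, 13 were well above background on no leukemia array, among them Ivl, Lor, Dsp and Krt5, which encode other proteins of that structure and of keratinocytes. The genes just named were also on no pro-B array. Another 4 of the 23, Pkp3 and Krt10 among them, were on all 6 leukemia arrays. The part of epithelial cells in the Evpl level was not tested. Among the 6 tested genes, 2 were lower in leukemias than in wt pro-B cells and 4 did not pass, with a median of -0.56, and against dHet pro-B cells 1 was higher and 2 lower. The plakin Dst was on no leukemia array and on 1 of the 2 wt arrays, where its mean was at least 1.03-fold higher (adjusted p = 0.0356), and the plakophilin Pkp3 was higher than in dHet pro-B cells by 2.17 ± 0.66 (adjusted p = 0.0405).

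Among 10 tested partners of the prion protein, 4 were higher and 1 lower in leukemias than in wt pro-B cells, with a median of 0.66, and 4 were higher in dHet than in wt pro-B cells while 6 did not pass. The disulfide isomerase Pdia3 was higher in leukemias than in wt pro-B cells by 1.92 ± 0.12 (adjusted p = 0.000299), the kinase Fyn by 1.56 ± 0.14 (adjusted p = 0.000583) and the laminin receptor and ribosomal gene Rpsa by 1.55 ± 0.12 (adjusted p = 0.000401). The related genes Prnd and Sprn were on no leukemia array. Against dHet pro-B cells 2 were higher and 3 lower.

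Of 22 tested FERM domain, Rac activator, plexin and semaphorin genes, 7 were higher and 7 lower in leukemias than in wt pro-B cells, with a median of 0.10. The semaphorin Sema6d averaged 0.90 in the leukemias and -0.12 in dHet, against -6.12 in wt pro-B cells, where it was below background. It was at least 32.3-fold above wt in the leukemias (adjusted p = 0.000482). The Rac activator Tiam2, on 1 of 6 leukemia arrays, fell by 3.73 ± 0.50 (adjusted p = 0.00181). Against dHet pro-B cells 2 were higher and 6 lower, with the plexin Plxnb2 higher by 3.05 ± 0.23 (adjusted p = 0.000743), and in dHet against wt pro-B cells 3 were higher and 1 lower.

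Crisp1 belongs to the CAP family of secreted proteins, of which 7 of 11 others, Crisp2, Crisp3 and Crisp4 included, were on no leukemia array. Among the 3 tested, Glipr2 was higher than in wt pro-B cells by 1.27 ± 0.25 (adjusted p = 0.00713) and Glipr1 fell by 0.54 ± 0.18 (adjusted p = 0.043). Of 10 other TMEM genes tested, whose shared name marks no shared function, 3 were higher and 1 lower in leukemias than in wt pro-B cells, with Tmem41a higher by 1.99 ± 0.36 (adjusted p = 0.00538).

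The genes next to the members on the chromosome were compared, 3 measured genes on each side by probe position, 60 in all. In the leukemias 25 of the 60 were higher than in wt pro-B cells (41.7%) and 13 lower (21.7%), against 31.2% and 27.5% of all genes, with a median change of 0.36. Against dHet pro-B cells 17 were higher and 11 lower, against 21.7% and 24.4% of all genes, and in dHet against wt pro-B cells 13 were higher and 10 lower, against 16.7% and 14.9%. Over the alternatives the counts against wt pro-B cells ran between 12 and 29 higher and between 6 and 19 lower.

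The strongest neighbour was Col26a1, a collagen gene 42.5 kb from the Myl10 probe. It averaged 1.14 in the leukemias, -2.58 in dHet and -5.99 in wt pro-B cells, and was at least 38.0-fold above wt in the leukemias, since wt pro-B arrays were below background (adjusted p = 0.00214). Its order of groups was that of Myl10. Beside Farp1, the transcript B930095G15Rik at 32.2 kb averaged -0.68 in the leukemias, -3.12 in dHet and -5.50 in wt pro-B cells, at least 10.8-fold above wt in the leukemias (adjusted p = 0.0014), and the importin gene Ipo5 at 335.9 kb was higher by 2.20 ± 0.17 (adjusted p = 0.000379). On the other side of Farp1, Stk24 at 3.3 kb changed by 0.35 ± 0.14 and did not pass (adjusted p = 0.075).

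Among the neighbours of Tmem121 that passed, those on either side moved in opposite directions. Tedc1 at 25.8 kb was higher in leukemias than in wt pro-B cells by 2.61 ± 0.19 and Crip1 at 35.8 kb by 1.80 ± 0.19, while on the immunoglobulin side Ighm, the heavy chain constant gene at 229.2 kb, fell by 2.80 ± 0.29. Ighg3, the nearest measured gene on that side at 169.5 kb, changed by 1.70 ± 0.98 and did not pass. Against dHet pro-B cells Ighg3 was higher by 5.84 ± 0.98 (limma, adjusted p = 0.0062). On the other side, Crip2 at 44.0 kb changed by -0.89 ± 0.53 against wt pro-B cells and did not pass. Beside Ffar2, Sbsn fell by 1.32 ± 0.24 and Mag by 1.47 ± 0.21. By Tmem40, Efcab12 fell by 2.18 ± 0.50, with 1 of 6 leukemia arrays above background. By Prnp, Rassf2 was higher by 0.97 ± 0.23 and Slc23a2 by 1.21 ± 0.24, while Adra1d, on 1 leukemia array, fell by 1.91 ± 0.39. None of the 6 neighbours of Tmem119 passed, the nearest being Iscu at 15.9 kb (-0.08 ± 0.12). Cdk3, 0.7 kb from the Evpl probe and on 1 leukemia array, fell by 1.90 ± 0.37, and Srp68 on the other side was higher by 1.34 ± 0.12. By Mylk, Hacd2 at 92.6 kb was higher by 1.58 ± 0.13 and Umps by 1.90 ± 0.39, and Kalrn, on 5 of 6 leukemia arrays, fell by 2.47 ± 0.71. The nearest measured genes of Crisp1, 576.6 kb and 2494.1 kb away, did not pass.

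**Figure D4:**
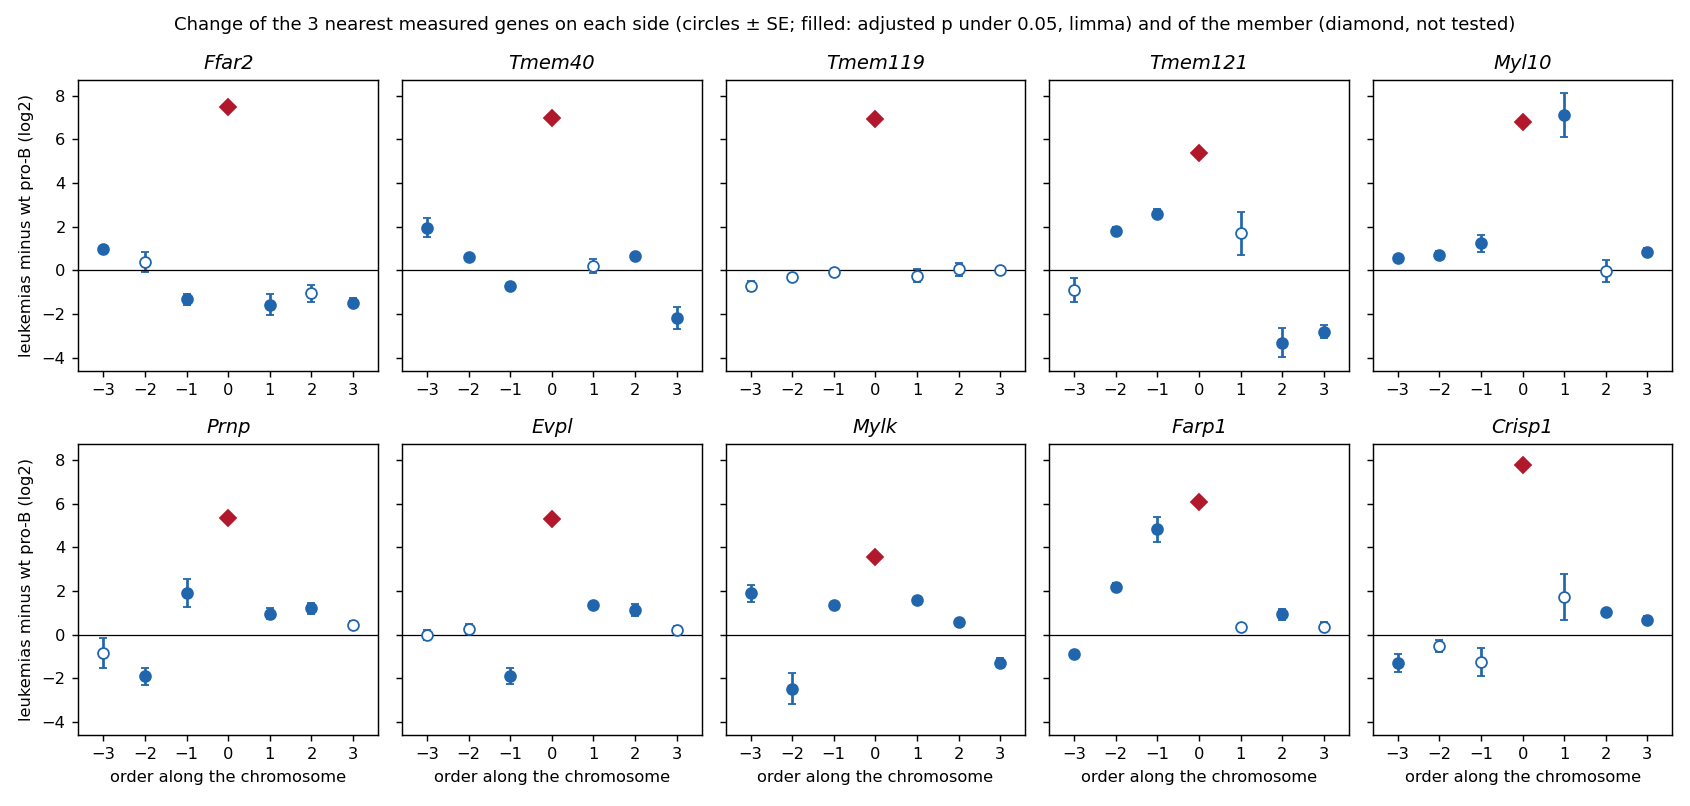
Leukemias minus wt pro-B cells (y axis, log2) for the 3 nearest measured genes on each side of each member (x axis, order along the chromosome). Blue circles are neighbours ± SE, filled where the adjusted p was under 0.05 (limma), and the red diamond is the member, not tested; the first gene right of Myl10, Col26a1, stands as high as the member, and the neighbours of Tmem119 lie near 0.

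Likeness over the 10 arrays was described by Pearson's r with each of 2958 genes that had a standard deviation of at least 1, where the 2 arrays of a group share their source. The closest genes were Chchd6 (r = 0.995) and Gsto1 (0.995) for Ffar2, Nme4 (0.994) for Tmem40, Tnfrsf1b (0.996) for Tmem119, Dyrk4 (0.992) for Tmem121 and Retsat (0.991) for Myl10. They were Crhbp (0.994) for Prnp, Igf2bp2 (0.995) for Evpl, Il18r1 (0.993) for Mylk, Pglyrp2 (0.991) for Farp1 and Polr2f (0.997) for Crisp1. Among the members, Ffar2 and Myl10 were the closest pair (r = 0.994), followed by Tmem119 and Farp1 (0.991), and Prnp and Mylk the most distant (0.472). Between 34 genes (Prnp) and 120 genes (Evpl and Crisp1) reached r of at least 0.95 with a member.

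Markers of the cell types in which the members are best known were summed on each array, in linear units of the 75th percentile and without the members. Neutrophil and monocyte markers summed to 118.5 and 148 in leukemia 686, 89.4 and 75.2 in 713 and 18.5 and 14.9 in 760, against 29.6 and 31.2 in dHet pro-B cells and 81.4 and 159 in wt pro-B cells. Ffar2 was highest in leukemia 760, where this sum was lowest, and lowest in wt pro-B cells, where the sum was high. The part of neutrophils and monocytes in the Ffar2 level was not tested. Elane, Csf3r and Cd14 were on no leukemia array, and 6 of 23 markers were on all of them. Of 18 tested, 3 were higher and 1 lower than in dHet pro-B cells by limma, against 21.7% and 24.4% of all genes. Against wt pro-B cells 2 were higher and 9 lower, against 31.2% and 27.5%. Csf1r, on all 6 leukemia arrays and no dHet array, was higher than in dHet pro-B cells (adjusted p = 0.00402). Fcgr3 was higher than in wt pro-B cells by 4.36 ± 1.41 (adjusted p = 0.0398). In that comparison S100a9 changed by -5.18 ± 1.71 (adjusted p = 0.0426).

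Microglia and tissue macrophage markers summed to 12.1 and 9.45 in leukemia 686, 20.2 and 14.3 in 713 and 7.76 and 4.94 in 760, against 5.94 and 6.61 in dHet pro-B cells and 8.24 and 9.58 in wt pro-B cells. Within the leukemias the sum followed the order of Tmem119, and its part in the Tmem119 difference was not tested. Sall1, Fcrls, Trem2 and Vsig4 were on no leukemia array, and 5 of 17 markers were on all. Of 11 tested, 6 were higher and 0 lower than in dHet pro-B cells by limma, against 21.7% and 24.4% of all genes. Against wt pro-B cells 2 were higher and 1 lower, against 31.2% and 27.5%. P2ry12, on all 6 leukemia arrays, 1 dHet array and no wt array, passed the filter on dim probes only through the leukemias. As a description, it was at least 7.01-fold above wt pro-B cells. Siglech, on 1 of 6, fell by 4.64 ± 0.37 against wt pro-B cells (adjusted p = 0.000433). In wt pro-B cells the sum was above that of dHet pro-B cells, while Tmem119 was 12.4-fold higher in dHet.

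Platelet and megakaryocyte markers summed to 8.84 and 6.34 in leukemia 686, 6.17 and 4.28 in 713 and 15.9 and 10.7 in 760, against 4.13 and 5.80 in dHet pro-B cells and 7.99 and 6.93 in wt pro-B cells. This order within the leukemias was that of Tmem40, and its part in the Tmem40 difference was not tested. Of 18 markers, 7 were on no leukemia array, Ppbp, Itga2b, Gp1ba and Gata1 among them. Of 7 tested, 2 were higher and 0 lower than in dHet pro-B cells by limma, against 21.7% and 24.4% of all genes. Against wt pro-B cells 2 were higher and 3 lower, against 31.2% and 27.5%. In that comparison Nfe2 was higher by 3.22 ± 0.65 (adjusted p = 0.00792). F13a1, on 2 of 6 leukemia arrays, fell by 4.85 ± 1.03 in it (adjusted p = 0.00933). Smooth muscle and pericyte markers summed to 24.2 to 66.5 in the leukemias, 31.9 to 34.7 in dHet pro-B cells and 32.5 to 39.5 in wt pro-B cells, with 7 of 15 on no leukemia array, Des and Lmod1 among them. Of 8 such markers tested, 1 was higher and 3 lower than in wt pro-B cells by limma, against 31.2% and 27.5% of all genes. Against dHet pro-B cells 2 were higher and 1 lower, against 21.7% and 24.4%. The widest change against wt pro-B cells was that of Cnn1, on 5 of 6 leukemia arrays, at -3.14 ± 0.42 (limma, adjusted p = 0.00177). Smtn was higher than in wt pro-B cells by 2.29 ± 0.35 (adjusted p = 0.00278). The sums were higher on replicate 2 of each leukemia. Mylk was higher on replicate 1, as members were in 29 of 30 pairs of a member and a mouse. Replicate and slide are the same split there, and the part of such cells in the Mylk level was not tested.

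Epithelial markers summed to 0.25 to 2.55 in the leukemias, 0.348 to 0.415 in dHet pro-B cells and 0.951 to 1.02 in wt pro-B cells, and 12 of 14, Cdh1, Krt8 and Krt18 included, were on no leukemia array. The 2 highest sums were on the arrays of leukemia 760, in which Evpl was highest. Of 5 epithelial markers tested, 0 were higher and 4 lower than in wt pro-B cells by limma, against 31.2% and 27.5% of all genes. Against dHet pro-B cells 0 were higher and 0 lower, against 21.7% and 24.4%. Epididymis markers summed to 0.539 to 4.99 in the leukemias, 0.205 to 0.239 in dHet pro-B cells and 0.178 to 0.217 in wt pro-B cells, and 9 of 11 were on no leukemia array. The only one of them to pass the filter on dim probes was Rnase10, an epididymal secreted protein. Rnase10 was on all 6 leukemia arrays and on no pro-B array, so it passed only through the leukemias. The filter thus set its direction, and its folds are a description. It was at least 20.4-fold higher in the leukemias than in dHet and at least 21.2-fold higher than in wt pro-B cells. The sum was highest in leukemia 760, whereas Crisp1 was highest in 713. Erythroid markers summed to 18.7 to 400 in the leukemias, with 400 and 226 in 713, against 10.9 to 11.7 in dHet and 11.0 to 13.2 in wt pro-B cells. T and NK cell markers summed to 33.7 to 82.7 in the leukemias, against 29.2 to 29.3 in dHet and 7.46 to 8.63 in wt pro-B cells. Of these 19 markers, 3 were on no leukemia array, 8 on no dHet array and 6 on no wt array. Klrd1 averaged 2.03 in the leukemias, 4.08 in dHet and 0.13 in wt pro-B cells (log2). Of 15 tested, 7 were higher and 0 lower than in dHet pro-B cells by limma, against 21.7% and 24.4% of all genes. Against wt pro-B cells 6 were higher and 0 lower, against 31.2% and 27.5%. Fibroblast, reticular and follicular dendritic cell markers summed to 38.5 to 78.8 in the leukemias, against 58.1 to 63.0 in dHet and 33.1 to 34.0 in wt pro-B cells. Of these 17 markers, 7 were on no leukemia array, 15 on no dHet array and 12 on no wt array. Mfge8 averaged 5.65 in the leukemias, 5.91 in dHet and 4.92 in wt pro-B cells (log2), so most of each group's sum came from that gene. The part of these cells in the members' levels was not tested.

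**Figure D5:**
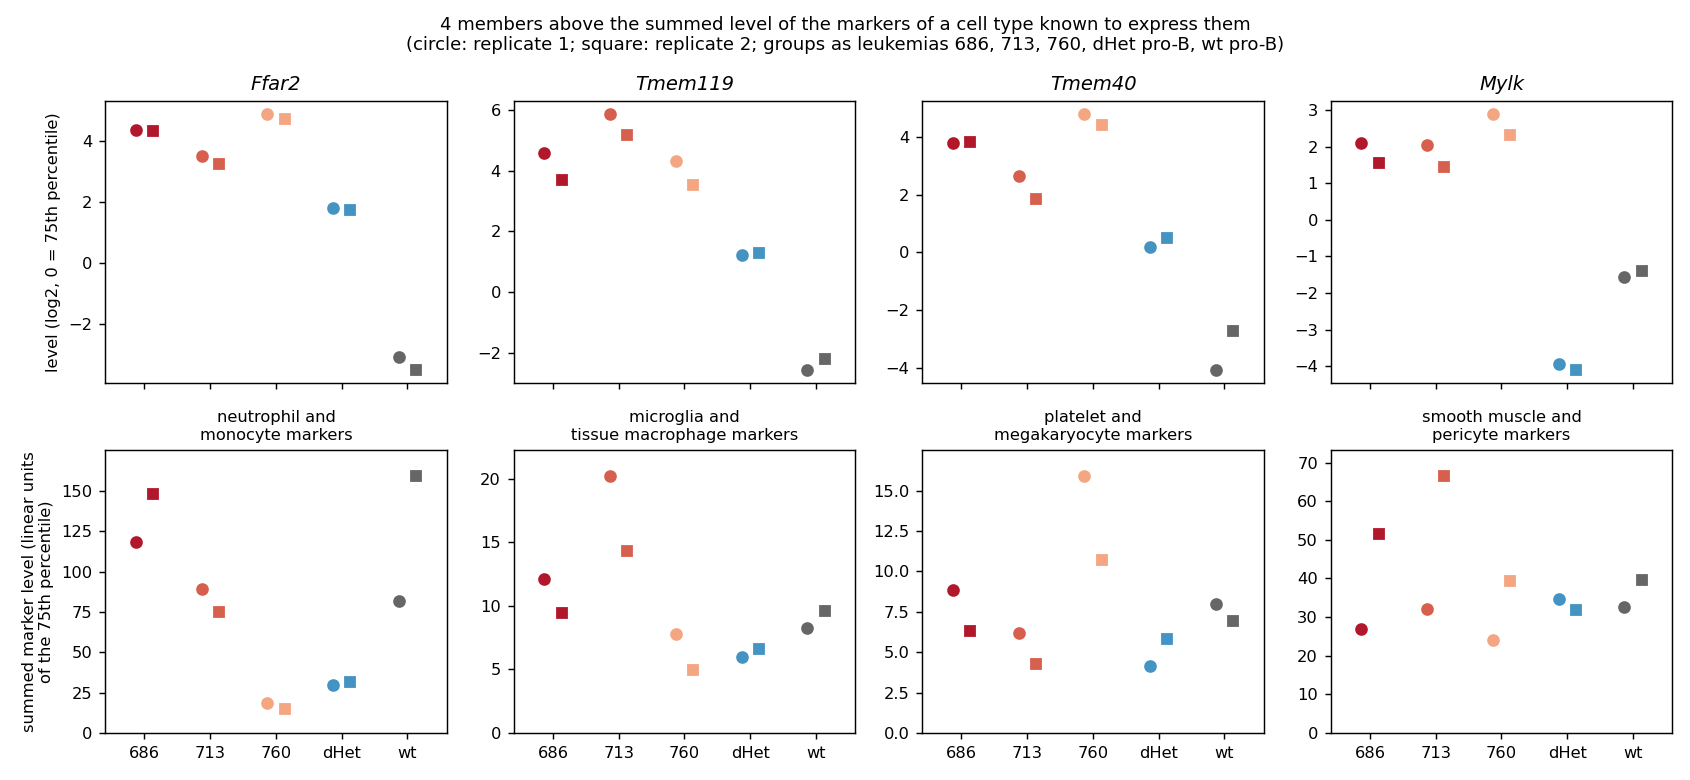
Upper row, level of Ffar2, Tmem119, Tmem40 and Mylk (y axis, log2 over the 75th percentile); lower row, summed level of neutrophil and monocyte, microglia and macrophage, platelet, and smooth muscle markers (y axis, linear units of the 75th percentile), on the arrays of leukemias 686, 713 and 760, dHet pro-B and wt pro-B cells (x axis). Circles are replicates 1 and squares replicates 2; within the leukemias the marker sums keep the order of Tmem119 and of Tmem40, while Ffar2 is highest in leukemia 760, where the neutrophil and monocyte sum is lowest.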

How the data were processed

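The members and gene lists were chosen with earlier results of these data known. Per the file headers, the deposited intensity values were made by Feature Extraction 10.5.1.1, while the submitters' processing notes name version 9.1. The software corrected the background within each array, and the files also mark spots as well above background, saturated or outliers. For 41267 probes (41174 matched) the authors also deposited log2 values, whose background treatment and centring stay unknown. Per array, their r with the scanner files' log2 signal was between 0.927 and 0.974.

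From the scanner files, control and outlier spots were left out, spots of a probe averaged, and the 75th percentile of each array's log2 processed signal subtracted. A probe was kept if some group had it well above background on every array (22302 of 41174). A gene is its brightest kept probe over 10 arrays. RefSeq (GRCm38.p6) named 28223 probes through accessions, 5394 through symbols and 349 through synonyms, and 7208 kept the files' name. Probe coordinates are mm9, per the file headers, and the exon or UTR behind a probe was not analysed here. Arrays give no read depth: their number limits precision.

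Tests used limma 3.58.1 (R 4.3.3, tables read with the data.table package, version 1.17.8, Benjamini-Hochberg, threshold 0.05) and were tested on simulated data. Leukemias against pro-B cells used 7 samples (the arrays of a mouse averaged, 4 residual degrees of freedom), and other comparisons 10 arrays in 5 groups (5 residual degrees of freedom). Named are all members, up to 3 called genes per list with the widest changes, neighbours past 2-fold or nearest (only some of these are printed), and the closest gene by r. Same-numbered arrays of 2 leukemias correlated in their deviations at r between 0.443 and 0.633 but share a slide, and other pairs at r between -0.030 and 0.080, so the numbers were not taken to pair samples. Alternatives were normexp (offset 50), quantile and median scaling, the authors' table, no filter, probe means, blocks and leave-one-out. Figures and tables used Python 3.11.15, pandas 2.3.3 and matplotlib 3.10.9.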

Additional observations from a re-analysis of the deposited data

Results flagged for a closer look

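In 8 cases a member differed between 1 leukemia and the other 2 by limma's test of that difference. Ffar2 (-1.195) and Tmem40 (-1.956) were lower in leukemia 713 on the log2 scale, and Tmem119 (1.499), Prnp (1.404) and Crisp1 (1.112) were higher there. In leukemia 760, Ffar2 (0.9557), Tmem40 (1.594) and Evpl (1.064) were higher. Erythroid markers were highest in 713 (sums of 400 and 226, against 18.7 to 129 on the other leukemia arrays), platelet and epididymis markers in 760 (15.9 and 10.7, and 4.99 and 4.30). Their part in these differences was not tested.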

How the results depend on the processing

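Genes called in the fits as reported were 8491 for leukemias against wt pro-B cells, 6672 for leukemias against dHet pro-B cells, 4564 for dHet against wt pro-B cells, and 617, 2217 and 1730 for leukemias 686, 713 and 760 against the others. In the same order, normexp gave 4886, 3136, 502, 0 (limma, 767 at an unadjusted p under 0.05), 357 and 201, and slide as a random block gave 5236, 3101, 7468, 2020, 4526 and 3511. Without the filter on dim probes, which tests more probes, dHet against wt pro-B cells gave 2396 and the leukemias 71, 971 and 801. The authors' table gave 934 for leukemia 686. Of the alternatives chosen after seeing the data, slide as a fixed block gave 2176, 4903 and 3750 for the leukemias. Leaving out 1 array gave 5403 to 8217, 3007 to 6462 and 2241 to 5136 for the comparisons with pro-B cells, and 227 to 905, 1167 to 2382 and 1024 to 2165 for leukemias 686, 713 and 760.

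A replicate block gave 7534, 5532, 5511, 878, 2759 and 2090 calls, and 1, 6 and 4 members called in leukemias 686, 713 and 760 against 0, 5 and 3 without the block, with Evpl in 686, Farp1 in 713 and Myl10 and Mylk in 760 gained and Tmem40 in 760 lost. Members already high in dHet pro-B cells numbered 0 as reported and 1 (Prnp) under normexp, quantile normalization and the authors' table, and, added after seeing the data, with the percentile over probes detected on all arrays and with the leukemia arrays of slide 2 only. Leaving out 1 array gave 0 to 1 already high, 6 to 8 intermediate and 2 to 3 high only in the leukemias. No difference of a member between leukemias and pro-B cells changed sign. The difference of the leukemias from wt pro-B cells ran between 5.17 and 8.06 for Ffar2, 2.65 and 4.10 for Mylk, 3.01 and 6.64 for Farp1 and 3.19 and 8.31 for Crisp1 over 18 alternatives. The cause of these changes was not tested. Scaling by the array median moved the split of calls against wt pro-B cells to 6366 higher and 2280 lower, against 4516 and 3975 as reported, and the percentile over detected probes to 2959 and 5482. Dim pro-B signals make the folds of Farp1 over wt and of Crisp1 over both kinds of pro-B cell bounds, and Tmem40 against wt and Mylk against dHet pro-B cells use a mean with 1 measured array of 2.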
